A study of Mus musculus with 2 samples.

Results

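Round spermatids that carried Spam1 mRNA but little mRNA of the earliest spermatid genes were taken from a droplet-based single-cell table of mouse testis. They numbered 291 of the 28245 cell barcodes (1.03%, exact binomial 95% interval 0.916 to 1.15%). A barcode entered the gate with at least 12000 UMIs (unique molecular identifiers, 1 per captured mRNA), with Prm1, Prm2, Tnp1 and Tnp2 together under 10% of its UMIs and with at least 5 Spam1 UMIs. It also had to hold fewer than 5 UMIs of Ssxb1, Ssxb2 and 1700001F09Rik together and fewer than 8 of Hemgn. The study profiled total testicular cells of adult mice of the strain label C57BL/CJ;ICR, with 1 library from miR-202-/- mice and 1 from WT mice, to examine cell composition and gene expression in testes that lack this microRNA. Testes were digested with collagenase and trypsin, debris was removed by flow sorting, and cells were run on the 10x Genomics 3′ v3.1 chemistry. How many animals went into a library the sources used here do not say, and miR-202 itself was not analysed here.

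Both libraries sit in 1 deposited table, where barcodes carry the mark 1 or 2. Which mark belongs to miR-202-/- and which to WT mice could not be read from the labels or the file, so the genotypes were not compared. The cells are treated as 1 pool. Levels and ratios are given under each mark, mark 1 before mark 2, except where both marks are said to be pooled. The labels give a target of 13000 cells per channel, beside the 28245 barcodes of both. By mark, the gate took 154 of 12935 barcodes (1.19%) for mark 1 and 137 of 15310 (0.895%) for mark 2. Agreement between marks is no replicate test, and all intervals cover counting error only. With no replicates there are no p-values.

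Round spermatids are the haploid cells that follow meiosis. In them the acrosome grows over the nucleus, and many mRNAs of sperm proteins are made and stored before the chromatin is packed with transition proteins and protamines. Spam1 encodes PH-20, a hyaluronidase anchored to the sperm surface that acts on the hyaluronan matrix around the egg. Its gene lies among other hyaluronidase genes on mouse chromosome 6.

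The gated cells were compared with barcodes on the other sides of the same gate. Early round spermatids held at least 5 UMIs of Ssxb1, Ssxb2 and 1700001F09Rik and fewer than 5 of Spam1 (1417 barcodes, 551 under mark 1 and 866 under mark 2). Hemgn-high spermatids held at least 8 Hemgn UMIs (198 barcodes, 117 and 81), and 25 of them also held at least 5 Spam1 UMIs. A further 995 barcodes (425 and 570), called double-positive, passed both the Spam1 and the early marker minimum. Pachytene-gated spermatocytes (831 barcodes) and Sertoli-gated barcodes (735) served as cells that should lack spermatid mRNA. The pachytene gate kept the UMI minimum and protamine limit and asked for at least 8 UMIs of Piwil1, Tdrd1 and Tdrd5 together. It also required fewer than 5 Spam1 UMIs, fewer than 5 of the early markers and fewer than 8 of Hemgn. Barcodes with more spermatid mRNA were thus left out of it. The Sertoli gate set no limit on Spam1, early marker or Hemgn UMIs, so it shared barcodes with the spermatid gates. Among those shared were 2 and 2 Spam1-gated, 10 and 5 early round and 2 and 2 Hemgn-high barcodes. The cells were thus chosen by their measured UMIs of these genes and of all genes, and the genes that set the gates were left out of every count.

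Levels are given in CPM, counts per 1000000, from the UMIs of a gene and of all genes summed over the barcodes of a group under a mark. A call of higher or lower required a 1.5-fold difference in CPM in the same direction for mark 1 and for mark 2. The higher group also had to reach 50 CPM and 50 UMIs each time. Against early round spermatids 15474 genes were measured, with at least 20 UMIs over both groups. Of these, 807 (5.22%) were called higher in the Spam1-gated cells and 570 (3.68%) lower, 8.9% in all. Against Hemgn-high spermatids, with 13059 genes measured, 482 (3.69%) were called higher and 511 (3.91%) lower, 7.6% in all.

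The split between higher and lower genes moved with the scaling. With TMM factors 890 genes were higher and 410 lower than in early round spermatids, and with ratios centred on their median 960 were higher and 374 lower. Against Hemgn-high spermatids TMM gave 218 higher and 757 lower, and centring gave 218 and 704. The protamine limit moved that contrast too, to 194 higher and 392 lower with a share under 5% in every group and to 1058 and 612 with a share under 20%. The median log2 ratio of all measured genes was -0.30 under mark 1 and -0.19 under mark 2 against early round spermatids, and 0.21 under each mark against Hemgn-high spermatids. All calls below are from CPM, and genes that lose a call with scaling are named with their list.

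The promoters printed here are of genes higher in Spam1-gated than in early round spermatids, and of the gate gene Spam1. They were picked to show the motif, except Tex36, a higher gene without it. They come from RefSeq for the build GRCm38.p6 and each is a stretch of 100 bases within the 250 before the RefSeq start, 5′ to 3′ on the gene's strand. Capitals mark the 8 letters TGATGTCA or their reverse complement TGACATCA, a variant of the cAMP response element. In the Ccin promoter the capitals mark the palindromic element TGACGTCA instead, and the Tex36 stretch holds neither.
Spam1: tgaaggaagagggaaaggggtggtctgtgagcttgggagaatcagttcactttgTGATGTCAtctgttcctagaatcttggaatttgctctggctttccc
Hyal5: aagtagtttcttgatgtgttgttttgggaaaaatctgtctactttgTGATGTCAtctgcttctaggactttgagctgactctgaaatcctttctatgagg
Saxo1: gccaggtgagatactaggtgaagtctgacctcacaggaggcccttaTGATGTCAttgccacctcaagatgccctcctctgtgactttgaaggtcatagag
Asb17: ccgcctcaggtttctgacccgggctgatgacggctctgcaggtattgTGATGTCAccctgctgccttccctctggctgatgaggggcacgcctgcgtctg
Rnf148: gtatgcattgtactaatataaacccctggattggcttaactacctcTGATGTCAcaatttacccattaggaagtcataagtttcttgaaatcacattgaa
Adam29: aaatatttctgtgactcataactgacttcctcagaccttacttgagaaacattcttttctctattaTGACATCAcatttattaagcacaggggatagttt
Iqcf1: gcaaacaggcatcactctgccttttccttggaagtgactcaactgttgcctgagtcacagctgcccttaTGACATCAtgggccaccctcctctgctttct
Ccin: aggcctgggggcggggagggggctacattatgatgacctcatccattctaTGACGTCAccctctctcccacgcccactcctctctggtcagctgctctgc
Tex36: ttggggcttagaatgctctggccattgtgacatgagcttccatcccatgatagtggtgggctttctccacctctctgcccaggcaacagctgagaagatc
The stretches are Spam1 at chr6:24791088-24791187, plus strand, Hyal5 at chr6:24857866-24857965, plus strand, Saxo1 at chr4:86558322-86558421, minus strand, Asb17 at chr3:153844147-153844246, plus strand, Rnf148 at chr6:23655163-23655262, minus strand, Adam29 at chr8:55906965-55907064, minus strand, Iqcf1 at chr9:106499867-106499966, plus strand, Ccin at chr4:43983404-43983503, plus strand and Tex36 at chr7:133602116-133602215, minus strand. The element class is known as the binding site of CREM, an activator of many spermatid genes.

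Both strands of the 250 bases before each start were searched. A gene with several RefSeq starts counts with each. TGATGTCA stood in 96 of 845 promoters (11.4%) of the genes higher than in early round spermatids, against 8 of 572 (1.40%) of the lower ones. It stood in 555 of 18445 promoters (3.01%) of all genes in the table, and in 159 of 3792 (4.19%) for genes at 50 CPM or more in Spam1-gated or early round spermatids. Against Hemgn-high spermatids the order was turned round, with 10 of 493 promoters (2.03%) of the higher genes and 51 of 535 (9.53%) of the lower genes. The matches of the genes higher than in early round spermatids lay a median of 54 bases before the start, and 84 of the 96 promoters held 1 within the last 100 bases. The palindrome TGACGTCA, which differs by 1 letter and does not overlap it, stood in 2.84% of promoters of the genes higher and 2.45% of those lower than in early round spermatids, in 2.20% of all and in 3.35% for genes at 50 CPM or more. The shorter motifs GTTGCC and TATAAA stood in 14.7% and 10.7% of promoters of the genes higher than in early round spermatids, against 11.2% and 8.21% of all and 14.2% and 7.65% for genes at 50 CPM or more, so GTTGCC was near its background. A match is a description of letters, not a site or a cause, and the motif was chosen after promoters of called genes had been seen. Most promoters of higher genes hold none, those of Asb15, Tmem81, Rnf133, Cct8l1, Cdyl and Fhl5 included.

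**Figure D1:**
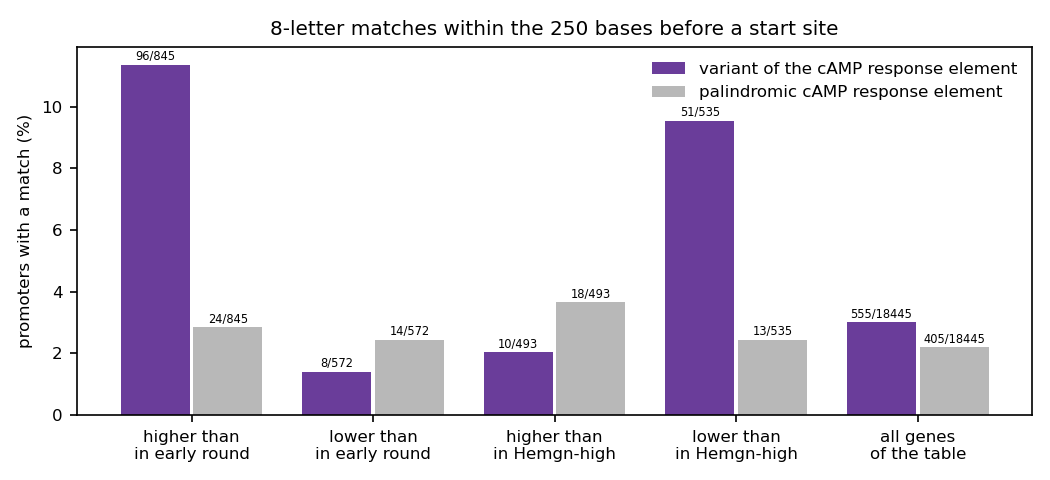
Share of promoters (%, y axis) with the variant TGATGTCA (purple) or the palindrome TGACGTCA (grey) within 250 bases before the start, for genes called higher or lower in Spam1-gated cells and for all genes. The counts stand above the bars, and the purple bar is tallest for genes higher than in early round spermatids, at 96 of 845.

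The gated cells were deep. Their median was 27850.5 UMIs under mark 1 (12363 to 70932) and 25481 under mark 2 (12732 to 71114), with medians of 5391 and 5185 detected genes. Early round spermatids had medians of 24754 and 22979 UMIs, and Hemgn-high spermatids 35444 and 36319. No doublet caller was run. UMIs of spermatocyte, Sertoli, macrophage, Leydig or erythroid genes flagged 4 of 154 gated barcodes under mark 1 and 6 of 137 under mark 2. Of Hemgn-high spermatids they flagged 5 of 117 and 9 of 81, and 24 and 28 of these barcodes held over 2 times the median UMIs of the gated cells. In the deposited data 73 barcode sequences occurred under both marks, and 1 of them was a gated cell.

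The 4 markers given with the gate were Spam1, Tex36, Plac8l1 and Tssk5, the last a testis-specific serine kinase. They were chosen with results of these data known, so their levels are no independent check of the label. Spam1, which defines the gate, stood at 265 and 263 CPM in the gated cells, against 79.8 and 86.4 CPM in early round and 43.8 and 45.7 CPM in Hemgn-high spermatids. Tex36 stood at 879 and 873 CPM, against 460 and 511 CPM in early round and 628 and 652 CPM in Hemgn-high spermatids. Tssk5 stood at 61.6 and 61.0 CPM, against 28.2 and 27.1 CPM in early round and 7.79 and 8.06 CPM in Hemgn-high spermatids. All 4 were highest in the Spam1-gated cells among the 5 groups plotted, and Tssk5 had the largest ratios to Hemgn-high spermatids, 7.90 (exact 95% interval 5.66 to 11.3) and 7.56 (5.16 to 11.5). Double-positive barcodes came nearest, with 707 and 717 CPM of Tex36 and 53.7 and 54.7 CPM of Tssk5. Their Tssk5 intervals, 50.3 to 57.2 and 51.6 to 57.8 CPM, overlapped those of the gated cells, 54.6 to 69.3 and 53.4 to 69.3 CPM. A list of 8 early round genes, 3 of them limited by the gate, summed to 2300 and 2161 CPM in the gated cells, against 1511 and 1612 CPM in early round spermatids. The label of a later round spermatid thus rests on the gate genes and on the levels of the 4 markers.

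Free RNA in the droplets was read from cells that should lack these genes. The pachytene gate limited Spam1, early marker and Hemgn UMIs, so its values may understate free RNA. The pachytene-gated spermatocytes, at medians of 45841.5 and 35383 UMIs, held 23.8 and 23.3 CPM of Tex36 and 2.69 and 2.26 CPM of Tssk5. After thinning every barcode to 10000 UMIs, Tssk5 was seen in 48.7% and 41.6% of gated cells, against 22.0% and 23.0% of early round spermatids, 4.27% and 3.70% of Hemgn-high spermatids and 4.25% and 2.21% of pachytene-gated spermatocytes. Without thinning the shares were 77.9% and 80.3% of gated cells, against 43.4% and 42.1% of early round spermatids, 22.2% and 21.0% of Hemgn-high spermatids and 11.8% and 8.11% of pachytene-gated spermatocytes. Double-positive barcodes showed Tssk5 in 39.8% and 43.3% with thinning and in 79.8% and 76.3% without. Their share was thus above that of the gated cells under mark 2 with thinning and under mark 1 without. The shallower Sertoli-gated barcodes, at medians of 4890 and 4335.5 UMIs, held 250 and 320 CPM of Tex36 and 13.2 and 21.0 CPM of Tssk5. Of the 46 and 31 Sertoli-gated barcodes deep enough to be thinned, 13.0% and 16.1% showed Tssk5. These deep barcodes include those shared with the spermatid gates, so the Sertoli-gated values are not a reading of free RNA alone. Per UMI, the levels of Tex36 and Tssk5 were thus higher in Sertoli-gated barcodes than in spermatocytes, and the Hemgn-high level of Tssk5 lay between them.

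**Figure D2:**
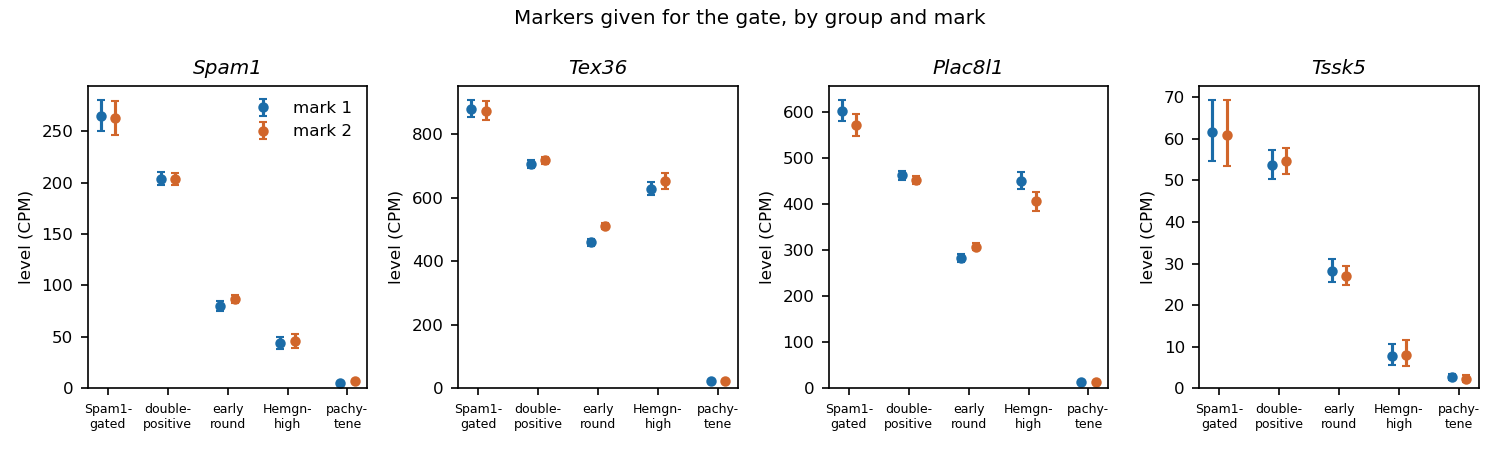
Level (CPM, y axis) of Spam1, Tex36, Plac8l1 and Tssk5 in 5 groups of barcodes (x axis), with points for mark 1 (blue) and mark 2 (orange) and bars for exact Poisson 95% intervals. The Spam1-gated points are the highest in each panel, and Tssk5 drops to 7.79 and 8.06 CPM in Hemgn-high spermatids.

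Many barcodes lay near the edge of the gate, here with both marks pooled. At exactly 5 Spam1 UMIs 65 barcodes lay inside, and 71 otherwise like them lay outside at 4. Those inside held 850 CPM of Tex36 and 190 CPM of Hyal5, and those outside 832 and 190 CPM. At the early marker limit 83 barcodes lay inside at 4 UMIs and 89 outside at 5. At the Hemgn limit 4 lay inside at 7 UMIs and 5 outside at 8, and 145 gated cells held no Hemgn UMI.

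The protamine and transition protein mRNAs mark elongating spermatids and were limited by the gate, so their levels are a description. Their summed median was 307 and 266 UMIs per gated barcode, with highest values of 2075 and 2962, against 256 and 230 in early round spermatids. Pachytene-gated spermatocytes held 293 and 250 and Sertoli-gated barcodes 248 and 214.5, while Hemgn-high spermatids held 1712 and 1800. These mRNAs took a median of 1.09% and 1.00% of UMIs in the gated cells, against 4.43% and 4.64% in Hemgn-high spermatids, and they count in the total by which CPM is divided.

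Markers of other cells were counted as lists. The 11 Sertoli markers summed to 28.8 and 186 CPM in the gated cells, against 47.1 and 25.1 CPM in early round, 81.8 and 40.8 CPM in Hemgn-high and 4454 and 5578 CPM in Sertoli-gated barcodes, with 1 and 0 of the 11 at 0 in the gated cells. The value under mark 2 stood apart, and its part in the differences of other genes was not tested. The lists for Leydig, stromal, macrophage, T or NK, endothelial and erythroid cells summed to between 1.56 and 28.4 CPM in the gated cells, and 4 of the 6 T or NK genes were at 0 under each mark. The 11 pachytene markers summed to 2516 and 2591 CPM, against 3605 and 3378 CPM in early round spermatids, of which 1 gene gave 2035 and 1995 CPM in the gated cells. Early spermatocyte markers summed to 81.4 and 92.2 CPM, against 158 and 143 CPM in early round spermatids, and spermatogonial markers to 28.6 and 43.2 CPM, against 32.8 and 36.6 CPM. The 13 elongating spermatid genes, 5 of them gate genes, summed to 19209 and 19849 CPM in the gated cells, against 16067 and 17112 CPM in early round and 56320 and 55079 CPM in Hemgn-high spermatids. With barcodes flagged for genes of other cells left out of every group, no count of called genes moved by more than 1.5 times.

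Mitochondrial mRNA was scarce in the gated cells. Its median share of a barcode's UMIs was 0.0410% and 0.0342%, against 0.636% and 0.511% in early round spermatids and 0.0293% and 0.0330% in Hemgn-high spermatids. That is a median of 11 UMIs under each mark, against 148 and 111 in early round spermatids. Of the 13 mitochondrial genes measured against early round spermatids 8 were called lower and none higher. The cytochrome oxidase gene mt-Co2 stood at 188 and 414 CPM, against 1585 and 1418 CPM in early round spermatids, a ratio of 0.119 (0.111 to 0.127) and 0.292 (0.277 to 0.307). The cells were uneven, with 7 of 154 and 11 of 137 gated barcodes at 0.5% or more and highest values of 2.13% and 4.14%. The mitochondrial share moved with the contrast against early round spermatids, and its part in the differences of other genes was not tested. Without the gated barcodes at 0.5% or more, every count of called genes stayed within 1.5 times. Early round barcodes were not filtered in this check, and 324 of 551 and 440 of 866 of them stood at 0.5% or more. The check therefore does not address the mitochondrial difference between the groups.

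**Figure D3:**
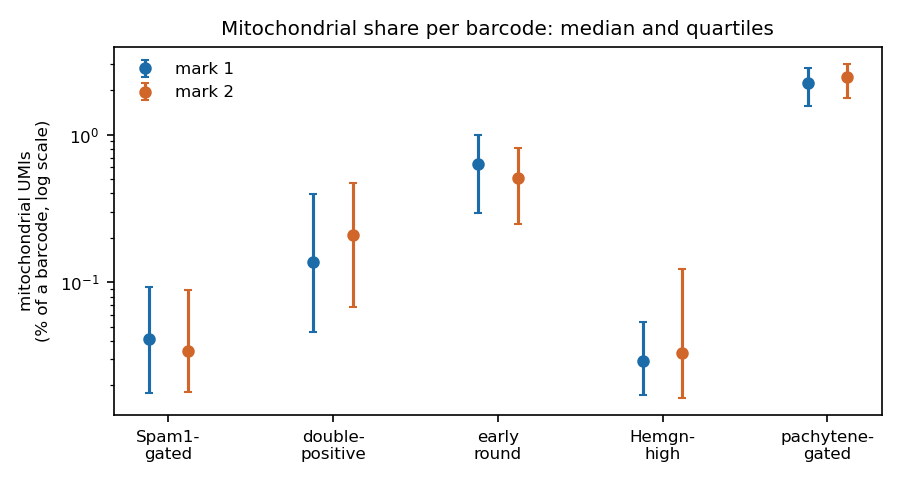
Mitochondrial share of each barcode's UMIs (%, log scale on the y axis) in 5 groups (x axis), with medians as points and quartiles as bars for mark 1 (blue) and mark 2 (orange). The Spam1-gated and Hemgn-high medians lie between 0.0293% and 0.0410%, below early round spermatids at 0.636% and 0.511%.

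Apart from the gate genes Prm1 and Prm2, most of the highest mRNAs stood near their level in early round spermatids. Ldhc, the lactate dehydrogenase of germ cells, led with 7349 and 7700 CPM in the gated cells, against 8028 and 8367 CPM in early round spermatids. Meig1, needed for the manchette, followed with 6208 and 6319 CPM, against 6503 and 6677 CPM. Fabp9 of the perforatorium stood at 4428 and 4426 CPM, against 4492 and 4548 CPM. Among the 15 highest genes outside the gate, Smcp was the one called. Smcp, a cysteine-rich protein of the sperm mitochondrial capsule, stood at 2650 and 2554 CPM, against 1400 and 1537 CPM in early round spermatids. The other highest genes, Ubb, Gm5617, Gstm5, Ropn1l, Gpx4, Fam229b, Dbil5, Pebp1 and Rbakdn, had ratios between 0.720 and 1.41.

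Seen without lists, the genes furthest above early round spermatids included a tail gene, a chaperonin gene and several with no assigned role here. Saxo1, which codes for a stabiliser of axonemal microtubules, stood at 156 and 118 CPM in the gated cells, against 18.4 and 17.5 CPM in early round spermatids, a ratio of 8.50 (7.38 to 9.81) and 6.74 (5.87 to 7.75). Cct8l1, of the chaperonin family, stood at 91.5 and 67.7 CPM, against 12.2 and 9.25 CPM. Gm33525 stood at 122 and 117 CPM, against 17.9 and 15.5 CPM. Asb15, an ankyrin and SOCS box protein, stood at 84.5 and 79.7 CPM, against 13.1 and 12.2 CPM. Each was between 6.45 and 8.50 times as high in the gated cells under both marks. Itsn2, an endocytic scaffold protein, had ratios of 5.46 and 5.23, and Dapl1 of 5.64 and 5.24. The other genes of the 12 with the largest ratios were Tmem81, described with the egg recognition genes, and 5 with Rik names, whose ratios lay between 5.21 and 6.54.

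The genes furthest below early round spermatids included genes of the secretory pathway and of mitochondria. Hspa5, the endoplasmic reticulum chaperone BiP, stood at 53.7 and 74.0 CPM in the gated cells, against 294 and 278 CPM in early round spermatids, a ratio of 0.183 (0.160 to 0.208) and 0.266 (0.235 to 0.299). Yipf5, a Golgi membrane protein, stood at 15 and 15.6 CPM, against 65.1 and 62.9 CPM. Sirt3, the mitochondrial deacetylase, stood at 15.4 and 20.8 CPM, against 71.8 and 81.2 CPM. Kdm4d, a demethylase of histone H3 lysine in spermatids, stood at 13.0 and 16.4 CPM, against 63.1 and 58.2 CPM. These 4 were at 0.282 or less of the early round level. Dcdc2a, Sh3gl1, Pxt1, Slc41a3 and Rgcc had ratios between 0.171 and 0.284. mt-Co2, given above, completes the group with Gm3453 and Gm3149. Gm3453 and Gm3149, close copies in 1 gene family whose reads the counting could split, had ratios between 0.231 and 0.272.

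**Figure D4:**
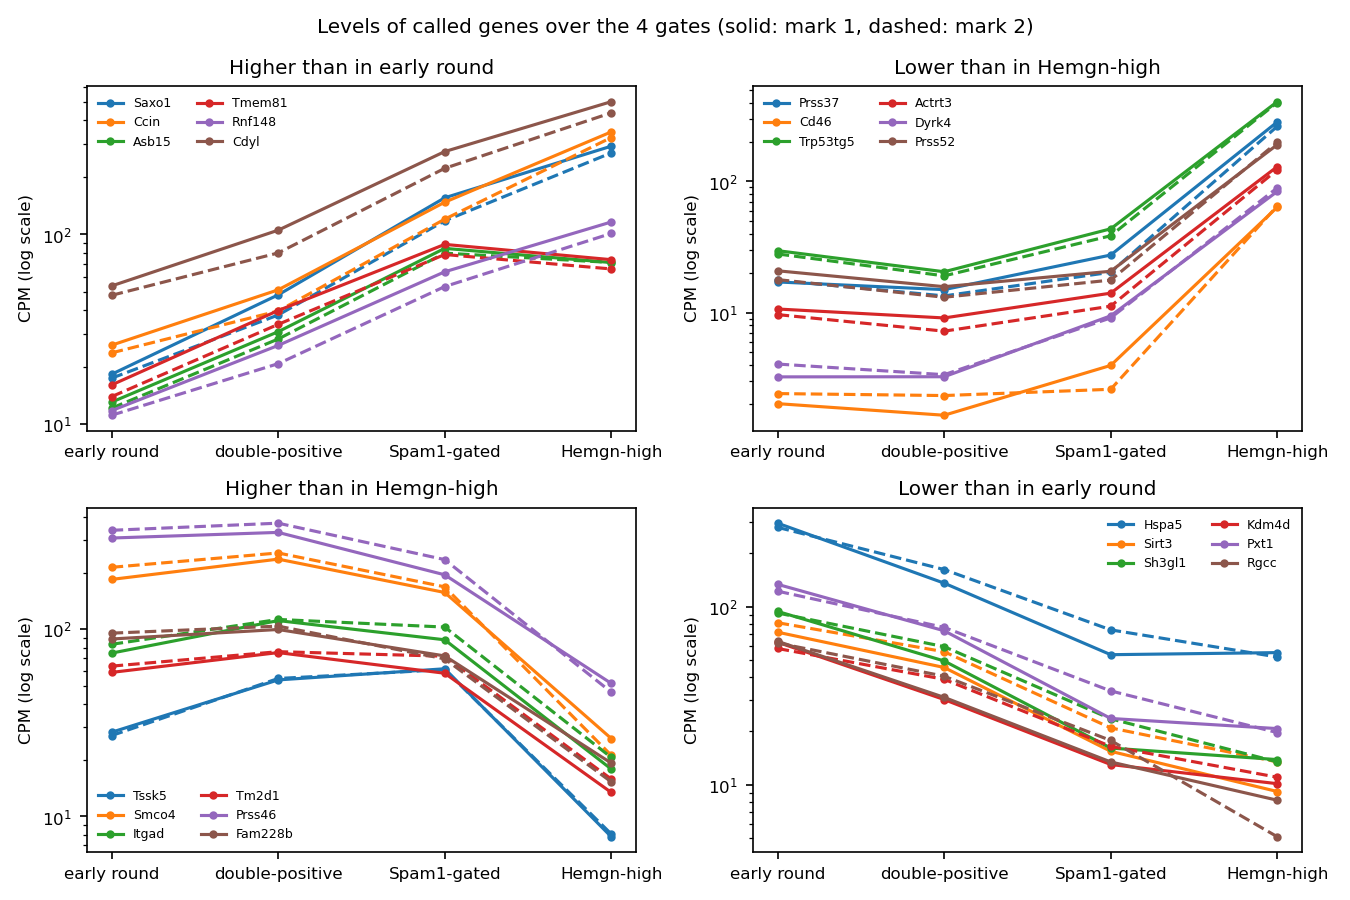
Level (CPM, log scale on the y axis) of named genes in 4 groups (x axis) under mark 1 (solid) and mark 2 (dashed). The order of the groups was set by hand from the gate genes and was not estimated. Upper panels hold genes higher than in early round or lower than in Hemgn-high spermatids, such as Saxo1 and Cd46, and lower panels hold genes higher than in Hemgn-high or lower than in early round spermatids, such as Tssk5 and Hspa5.

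Gene lists were then read by role against early round spermatids. Over all 12 lists with called genes 75 listed genes were higher and 21 lower. The shares are to be read against the 5.22% of measured genes that were higher and the 3.68% that were lower. Among genes at 50 CPM or more, which alone could be called, the shares were 21.6% and 15.3%. Of listed genes at that level, 2 of 19 in the translation, 5 of 33 in the flagellum and 3 of 15 in the glycolysis list were higher. These lists thus lay below 21.6%, and the other lists with called genes lay above it.

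Of 24 measured genes of egg recognition and hyaluronidases, 9 were higher and 1 lower, with a median log2 ratio of 0.65 and 0.26. Hyal5, the hyaluronidase gene next to Spam1, stood at 197 and 178 CPM in the gated cells, against 65.4 and 73.7 CPM in early round spermatids, a ratio of 3.02 (2.75 to 3.31) and 2.42 (2.21 to 2.65). Its level in Hemgn-high spermatids was 183 and 177 CPM, where Spam1 stood at 43.8 and 45.7. After thinning it was seen in 86.4% and 78.1% of gated cells, against 41.2% and 45.7% of early round spermatids, 8.25% and 10.6% of pachytene-gated spermatocytes and 23.9% and 25.8% of Sertoli-gated barcodes. Those Sertoli-gated barcodes include some shared with the spermatid gates. On the plus strand of chromosome 6 of GRCm38 the cluster runs from Hyal6 (chr6:24733245-24745452) and Hyal4 (chr6:24748329-24767662) to Spam1 (chr6:24791188-24801048) and Hyal5 (chr6:24857997-24891958). Hyal6 stood at 43.3 and 36.7 CPM in the gated cells, against 62.6 and 50.9 CPM in early round spermatids, and was not called. Hyal4 had 1 UMI over all gated cells.

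Genes of sperm-egg fusion were among those higher. Izumo1, the sperm protein that binds its receptor on the egg, stood at 174 and 173 CPM in the gated cells, against 85.2 and 94 CPM in early round spermatids. Spaca6, needed for fusion, stood at 71.3 and 66.2 CPM, against 30.4 and 33.9 CPM. Tmem81, which forms a complex with Izumo1 and Spaca6 proteins in zebrafish, stood at 88.7 and 78.4 CPM, against 16.1 and 14 CPM, a ratio of 5.5 (4.67 to 6.48) and 5.60 (4.76 to 6.59). Tmem81 thus had the largest ratio of the list. Izumo2, Eqtn, Llcfc1, Dcst1 and 4930451I11Rik were also higher, by ratios between 1.71 and 2.66. Zpbp2, a zona pellucida binding protein of the acrosome, was lower at 338 and 370 CPM, against 552 and 590 CPM, and lost its call with TMM factors or centring.

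Of 30 genes of sperm surface ADAMs and their chaperones 8 were higher and 2 lower. Adam29, an ADAM family membrane protein of the testis, stood at 113 and 106 CPM in the gated cells, against 30 and 30.7 CPM in early round spermatids, a ratio of 3.77 (3.31 to 4.29) and 3.47 (3.06 to 3.92). Calr3, the testis calreticulin that folds ADAM proteins, stood at 74.6 and 60.7 CPM, against 20.1 and 22.3 CPM. Pdilt, its partner chaperone, stood at 282 and 248 CPM, against 138 and 142 CPM. The 3 genes were between 1.74 and 3.77 times as high in the gated cells. Adam1a, Adam24, Adam26b, Adam39 and Ace were also higher, with ratios between 1.55 and 1.94. Adam1b, a fertilin alpha subunit, was lower at 68.0 and 73.5 CPM, against 127 and 125 CPM. Adam2, the fertilin beta subunit, was lower at 162 and 173 CPM, against 281 and 269 CPM, and lost its call with TMM factors or centring.

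Of 34 acrosome genes 13 were higher and 1 lower. Ccin, the calicin of the perinuclear theca, stood at 148 and 120 CPM in the gated cells, against 26.1 and 23.8 CPM in early round spermatids, a ratio of 5.66 (4.99 to 6.43) and 5.06 (4.45 to 5.75). Iqcf1, an acrosomal protein, stood at 545 and 498 CPM, against 143 and 145 CPM. Prss55, a serine protease of the testis, stood at 106 and 90.1 CPM, against 28.1 and 31.4 CPM. These genes were at 13.7 to 14.3, 62.5 to 82.2 and 15.9 to 21.4 CPM in pachytene-gated spermatocytes. That is the level read in cells that should lack them, under a gate that limited spermatid UMIs. Acrv1, Spaca1, Spaca3, Spaca4, Spaca9, Fam209, Actl7a, Actl9, Cylc1 and Cylc2 were higher by ratios between 1.60 and 2.88. Dpy19l2, which tethers the acrosome to the nucleus, was lower at 82.9 and 77.4 CPM, against 154 and 127 CPM, and lost its call with centring. Acr, the acrosomal protease acrosin, stood at 285 and 279 CPM, against 249 and 258 CPM, and was not called.

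Among 8 testis-specific serine kinase genes 4 were higher and none lower. Tssk2 stood at 931 and 884 CPM in the gated cells, against 419 and 483 CPM in early round spermatids. Tsks, the substrate protein of Tssk1 and Tssk2, stood at 446 and 414 CPM, against 219 and 244 CPM. Tssk1 and the marker Tssk5 were the others. Tssk5 was given with the gate and chosen with results of these data known, so its call is no independent part of the count.

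Of 22 transcription regulators 4 were higher and 2 lower. The median log2 ratio of the list was -0.31 and -0.28, beside -0.30 and -0.19 for all measured genes. Fhl5, a coactivator of CREM in the testis, stood at 450 and 400 CPM in the gated cells, against 124 and 122 CPM in early round spermatids, a ratio of 3.64 (3.42 to 3.88) and 3.28 (3.08 to 3.49). Crem itself stood at 546 and 578 CPM, against 487 and 518 CPM, and was not called. Fhl5 thus differed while Crem, at ratios of 1.12 and 1.12, did not pass the 1.5-fold rule. Sox5, Sox30 and Rfx4, each a DNA-binding factor of spermatids, were higher by ratios between 1.61 and 2.05. Hsf5, a factor of meiosis in mouse, was lower at 56.1 and 55.5 CPM, against 155 and 124 CPM. Tbpl1, the TBP-like factor needed in round spermatids, was lower at 490 and 537 CPM, against 936 and 885 CPM, and lost its call with centring.

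Of 20 chromatin genes 6 were higher and none lower. Cdyl, a chromodomain protein related to Y-linked genes of human, stood at 273 and 223 CPM in the gated cells, against 53.6 and 47.8 CPM in early round spermatids, a ratio of 5.10 (4.66 to 5.58) and 4.66 (4.26 to 5.11). The linker histone gene H1fnt stood at 602 and 528 CPM, against 176 and 174 CPM. Hils1, a spermatid linker histone-like gene, stood at 2033 and 1818 CPM, against 883 and 907 CPM. Prm3 stood at 1592 and 1451 CPM, against 546 and 559 CPM. The chromatin remodeler Chd5 and the histone H3.3 gene H3f3b were the others. H2al2a, a histone variant that precedes protamines, stood at 222 and 193 CPM, against 124 and 140 CPM, and was called with centring but not otherwise.

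Of 16 spermatid ubiquitin ligases and ubiquilins 8 were higher and none lower. Rnf148 stood at 63.6 and 53.1 CPM in the gated cells, against 11.8 and 11.2 CPM in early round spermatids, a ratio of 5.38 (4.45 to 6.53) and 4.76 (3.93 to 5.75). Its neighbour on chromosome 6, Rnf133, stood at 113 and 97.2 CPM, against 30.2 and 31.9 CPM. Asb17 stood at 245 and 224 CPM, against 56.5 and 55.3 CPM. Both Rnf genes encode RING finger proteins of the testis, and Asb17 an ankyrin and SOCS box protein. Fbxo24, Trim36, Rnf151 and Klhl10 were also higher, by ratios between 1.54 and 4.12.

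Of 25 genes of the manchette, the microtubule skirt that shapes the head, 6 were higher and 2 lower. The median log2 ratio of the list was -0.26 under each mark, beside -0.30 and -0.19 for all measured genes. Sun5, a nuclear envelope protein that joins head and tail, stood at 287 and 295 CPM in the gated cells, against 104 and 120 CPM in early round spermatids. Hook1, Map7, Sun3, Spag4 and Spata6 were higher by ratios between 1.54 and 1.95. Iqcg, a protein of the flagellum and manchette, was lower at 60.3 and 66.7 CPM, against 142 and 144 CPM. Kif3b, a kinesin motor subunit of transport along microtubules, was lower at 69.3 and 64.1 CPM, against 122 and 106 CPM, and lost its call with centring.

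Of 21 ion channel and soluble cyclase genes 7 were higher and 2 lower. The median log2 ratio of the list was -0.35 and -0.25, beside -0.30 and -0.19 for all measured genes. The CatSper pore genes Catsper1, Catsper3 and Catsper4 were higher by ratios between 1.53 and 2.20, while the pore gene Catsper2 was lower by 0.655 and 0.648. Catsper3 stood at 216 and 209 CPM in the gated cells, against 99.3 and 114 CPM in early round spermatids. Catsper2 stood at 174 and 166 CPM, against 266 and 257 CPM, and was also present in pachytene-gated spermatocytes at 219 and 176 CPM. Catsper3 was at 6.87 and 7.32 CPM there. The Catsper2 call was lost with TMM factors or centring, and that of Slc26a8, an anion transporter of the sperm annulus, with TMM factors. Lrrc52, an auxiliary subunit of the sperm potassium channel, had the largest ratios of the list, 2.99 and 2.72. Efcab9, Atp1a4 and Tmem249 were the other higher genes.

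Of 40 flagellum genes 5 were higher and 7 lower, a balance that turned to 7 higher and 5 lower with TMM factors or centring. Odf3, of the outer dense fibre family, stood at 545 and 500 CPM in the gated cells, against 153 and 165 CPM in early round spermatids. Akap4, the main fibrous sheath anchor, stood at 561 and 508 CPM, against 290 and 284 CPM. Tekt5, a tektin, Ropn1, a fibrous sheath protein, and Oaz3, an antizyme of ornithine decarboxylase, were the others. Odf1, Odf2, Odf4, Akap3, Ropn1l, Fsip1 and Fsip2, also of the fibres and sheath, were not called, though Akap3 was called higher with either scaling. Those lower were the dynein genes Dnah1, Dnah8, Dnah12 and Dnah17 with Cfap65, Cfap70 and Spag6l, of which Dnah1 and Cfap70 lost their call with TMM factors or centring. Dnah8, an axonemal dynein heavy chain, stood at 137 and 149 CPM, against 344 and 276 CPM, and pachytene-gated spermatocytes held 1291 and 1033 CPM.

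In the translation and glycolysis lists called genes went both ways. Of 21 genes of translational control 2 were higher and 3 lower. Paip2b, an inhibitor of the poly(A)-binding protein, stood at 66.2 and 59.7 CPM in the gated cells, against 29.4 and 25 CPM in early round spermatids, and its relative Paip2 was higher by ratios of 1.81 and 1.57. Tdrd6 of the chromatoid body, the RNA-binding gene Tarbp2 and the helicase gene Dhx36 were lower, with ratios between 0.427 and 0.591. Of 17 glycolysis genes Gapdhs, Aldoart2 and Slc16a7 were higher and Slc2a3 was lower. Gapdhs, the glyceraldehyde phosphate dehydrogenase of sperm, stood at 1184 and 1115 CPM, against 628 and 652 CPM. Slc2a3, a glucose transporter, stood at 61.8 and 70.6 CPM, against 192 and 140 CPM, and pachytene-gated spermatocytes held 1023 and 915 CPM.

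**Figure D5:**
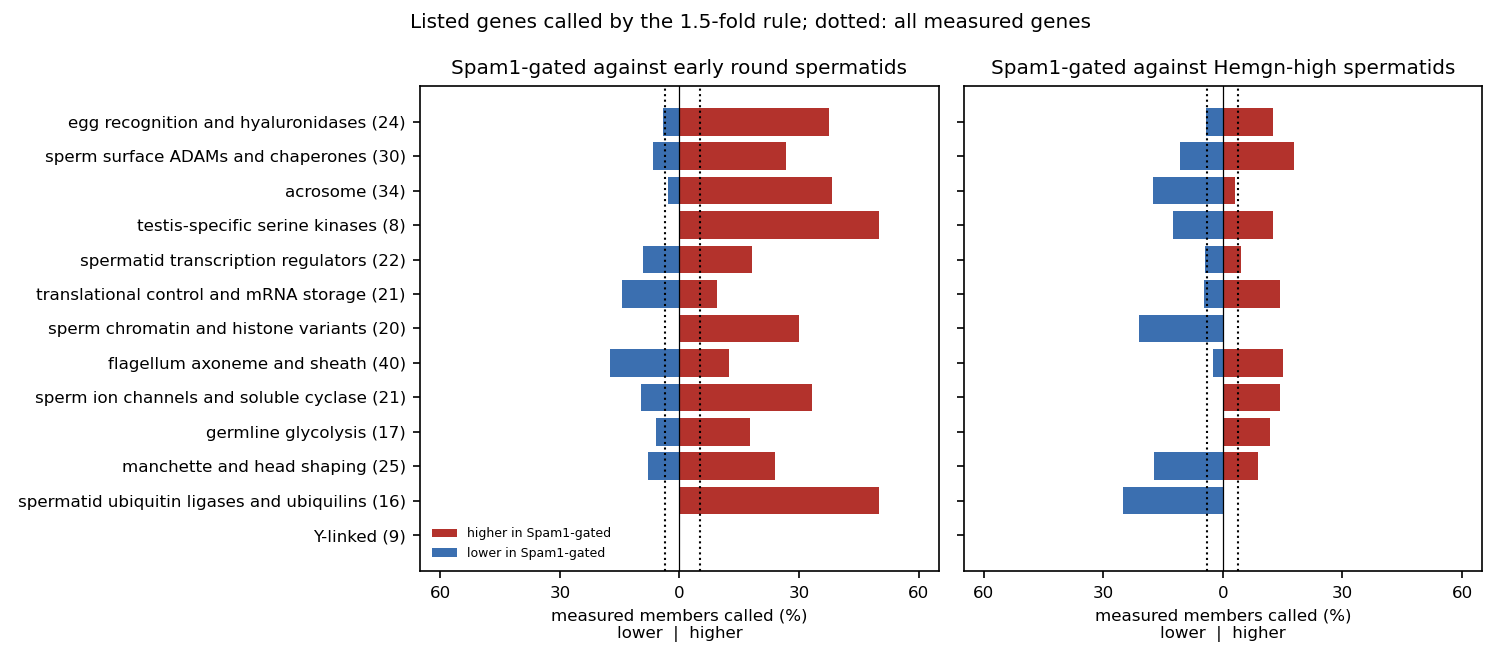
Share of the measured genes of each list (%, x axis; the number measured against early round spermatids stands in brackets) called higher (red, right) or lower (blue, left) in Spam1-gated cells against early round (left panel) and Hemgn-high spermatids (right panel). Dotted lines mark all measured genes, and the larger shares among genes at 50 CPM or more are not drawn. The kinase list, which holds the marker Tssk5 given with the gate, and the ubiquitin list reach 50% higher in the left panel. The balance turns with TMM factors or centring for the flagellum list in both panels and for the ADAM and glycolysis lists in the right one.

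Genes of the sex chromosomes, which are silenced in pachytene cells and are partly expressed again in round spermatids, took more of the UMIs. X-linked genes made up 1.43% and 1.33% of UMIs in the gated cells, against 0.846% and 0.869% in early round spermatids, 1.78% and 1.66% in Hemgn-high spermatids and 0.123% and 0.144% in pachytene-gated spermatocytes. Of 449 measured X-linked genes 38 were higher than in early round spermatids and none lower, a balance that scaling left at 38 or 39 to 0. The 38 are 8.46% of those measured, against 5.22% of all genes. Hypm stood at 276 and 259 CPM in the gated cells, against 85.0 and 90.2 CPM in early round spermatids. Cypt1, a basic protein of the perinuclear theca, stood at 508 and 445 CPM, against 203 and 198 CPM. Pgrmc1, a haem-binding membrane protein, stood at 122 and 116 CPM, against 40.6 and 41.7 CPM. Rlim, a ubiquitin ligase, stood at 85.6 and 81.5 CPM, against 33.9 and 36.4 CPM. The 4 genes were between 2.24 and 3.24 times as high in the gated cells. Against Hemgn-high spermatids 3 of 351 X-linked genes were higher and 25 lower, and 0 were higher and 45 or 42 lower with TMM factors or centring.

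Y-linked genes took 0.0799% and 0.0779% of UMIs in the gated cells, against 0.0637% and 0.0636% in early round spermatids. None of 74 measured Y-linked genes was called, and against Hemgn-high spermatids 1 of 58, Gm29044, was lower. Of the Y-linked list none of the 9 measured against early round or the 8 against Hemgn-high spermatids was called. Eif2s3y, a translation factor subunit, stood at 80.5 and 92.5 CPM, against 64.5 and 64.2 CPM. Sly, a multicopy regulator of sex chromosome genes whose copies share reads, stood at 58.3 and 53.1 CPM, against 65.7 and 55.6 CPM. A haploid spermatid carries an X or a Y, and mRNA is known to pass between spermatids through cytoplasmic bridges. In 10000 UMIs per cell a gated cell held a median of 8 Y-linked UMIs under each mark (1 to 17). No gated cell had 0. Pachytene-gated spermatocytes held 0.00421% and 0.00428% of their UMIs in Y-linked genes. Sertoli-gated barcodes, some of them shared with the spermatid gates, held 0.0380% and 0.0376%. They can hold Y-linked mRNA of their own, so these values are not a reading of free RNA alone. The part of free RNA in the Y-linked UMIs of gated cells was not tested.

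Against Hemgn-high spermatids the genes furthest above included some that were not called against early round spermatids. Smco4, a small membrane protein, stood at 158 and 169 CPM in the gated cells, against 26.1 and 21.2 CPM in Hemgn-high spermatids, a ratio of 6.03 (5.01 to 7.31) and 7.95 (6.29 to 10.2). It stood at 185 and 215 CPM in early round spermatids. Itgad, an integrin alpha chain, stood at 88.0 and 103 CPM, against 17.9 and 20.7 CPM. Prss46, a serine protease of the testis, stood at 196 and 236 CPM, against 51.4 and 46.2 CPM. Smco4, Itgad and Prss46 had ratios to early round spermatids between 0.636 and 1.24. Tm2d1, Fam228b and Dop1b had ratios between 3.46 and 6.79, and the other 5 of the 12 largest besides Tssk5 had Rik or Gm names and ratios between 3.52 and 5.36.

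The genes furthest below Hemgn-high spermatids had at most 0.113 of the Hemgn-high level. Cd46, in mouse a protein of the acrosomal membrane, stood at 3.96 and 2.61 CPM, against 63.7 and 65 CPM in Hemgn-high spermatids, a ratio of 0.0621 (0.0364 to 0.0998) and 0.0401 (0.0190 to 0.0750). Prss37, a protease-like protein needed for Adam3 processing, stood at 27.5 and 20.3 CPM, against 284 and 263 CPM. Acot12, a thioesterase of acetyl-CoA, stood at 3.52 and 2.61 CPM, against 54.0 and 57.0 CPM. Pachytene-gated spermatocytes, whose gate limited spermatid UMIs, held 2 and 1.59 CPM of Cd46 and 1.76 and 1.65 CPM of Acot12. Both genes were near that level in the Spam1-gated cells. Osbpl7, Cntn1, Spata31d1b, Trp53tg5, Prss52, Actrt3 and Dyrk4, with 4930479H17Rik and Gm8251, had ratios between 0.0491 and 0.113.

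By list, 27 listed genes were higher and 25 lower than in Hemgn-high spermatids, and 15 higher and 42 or 39 lower with TMM factors or centring. Of all measured genes 3.69% were higher and 3.91% lower, and of those at 50 CPM or more 13.7% and 14.5%. The acrosome list had 1 higher (Dpy19l2) and 6 lower (Spaca9, Prss55, Actl9, Ccin, Cylc1 and Iqcf1) of 34, unchanged in number by scaling. Iqcf1 stood at 545 and 498 CPM in the gated cells, against 1090 and 1069 CPM in Hemgn-high spermatids. Spaca9 stood at 930 and 860 CPM, against 1687 and 1623 CPM. Acrv1, Spaca1 and Spaca3, acrosomal genes that were higher than in early round spermatids, had ratios to Hemgn-high spermatids between 1.07 and 1.26 and were not called.

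The chromatin list had 4 of 19 genes lower and none higher, and 6 lower with either scaling. H2al2a stood at 222 and 193 CPM in the gated cells, against 746 and 734 CPM in Hemgn-high spermatids. Tssk6, a kinase needed for chromatin condensation that stands in the chromatin and the kinase lists, stood at 188 and 188 CPM, against 517 and 519 CPM. H1fnt and Cdyl were the others. The ubiquitin list had 4 of 16 genes lower (Rnf133, Rnf148, Ubqlnl and Asb17), none higher, and 7 lower with either scaling. The manchette list had 2 higher (Ift88 and Kif3b) and 4 lower (Hook1, Spem1, Map7 and Sun3) of 23, or 1 higher and 5 or 4 lower with scaling. Among the 8 kinase genes the marker Tssk5, given with the gate, was higher and Tssk6 lower, and 1 was higher and 4 or 3 lower with scaling. Spem1, a protein of cytoplasm removal, stood at 85.4 and 77.4 CPM, against 237 and 258 CPM.

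Called genes of the remaining lists went both ways or turned with scaling. Of 40 flagellum genes 6 were higher (Dnah3, Dnaic1, Cfap44, Spef2, Fsip1 and Fsip2) and 1 lower (Tekt5), which turned to 2 higher and 3 lower with either scaling. Fsip1, a fibrous sheath interacting protein, stood at 382 and 376 CPM in the gated cells, against 153 and 145 CPM in Hemgn-high spermatids. Of 28 ADAM and chaperone genes 5 were higher (Adam1b, Adam2, Adam20, Adam26b and Adam39) and 3 lower (Adam6a, Calr3 and Prss37), which turned to 3 higher and 5 or 4 lower with scaling. Of 24 egg recognition genes Tmem95, Spesp1 and Zpbp2 were higher and Cd46 lower, and the split was 2 to 2 with scaling. Tmem95, a sperm membrane protein needed for fusion, stood at 56.5 and 56.5 CPM, against 19.5 and 17.5 CPM. Of 21 channel genes Catsper2, Slc9c1 and Slco6c1 were higher and none lower, or 2 higher and 1 lower with scaling. Slco6c1, an organic anion transporter of the testis, stood at 173 and 184 CPM, against 70.3 and 67.4 CPM. The glycolysis list had Pfkp higher and none lower, beside Lyzl4, a lysozyme-like gene that the list of 17 also held, and with scaling 0 were higher and 1 lower. Translation genes had 3 higher (Pabpc2, Ddx4 and Tdrd7) and 1 lower (Paip2b) of 21, or 2 and 1 with scaling. Tbpl1 was higher and Fhl5 lower among 22 transcription regulators, to which scaling added 1 lower. Among the named higher genes of these lists, Spesp1, Adam2, Adam39, Catsper2, Pabpc2, Ift88, Dnah3, Dnaic1, Cfap44, Spef2, Pfkp and Lyzl4 lost their call with either scaling.

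Double-positive barcodes differed less in number of genes. With 15314 measured, 316 (2.06%) were called higher in the gated cells and 182 (1.19%) lower, 3.25% in all. Hyal5 stood at 197 and 178 CPM in the gated cells, against 133 and 127 CPM in double-positive barcodes. Saxo1 stood at 156 and 118 CPM, against 48.1 and 37.7 CPM. Hspa5 stood at 53.7 and 74.0 CPM, against 135 and 161 CPM. For each of these genes the double-positive level lay between those of the gated and the early round cells. Of the 6 chromatin genes higher than in early round spermatids, Prm3, H1fnt, Chd5 and Cdyl were also called higher here, by ratios between 1.53 and 2.79.

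The spread among the gated cells was read gene by gene. After thinning to 10000 UMIs, 2107 genes averaged at least 1 UMI per cell, and their median variance over mean was 1.09, where pure counting gives 1. At such low counts counting noise hides most other spread, and the summed X-linked UMIs had a variance over mean of 3.96 and 6.53. Values above 2 were found for 32 genes. The highest were Prm2 (54.0), mt-Co3 (24.6), Prm1 (24.0), mt-Co2 (18.6), mt-Co1 (18.0), mt-Atp6 (16.7), Tnp2 (12.3) and Tnp1 (8.77), followed by 1700027A15Rik (3.65) and Malat1 (3.33). The protamine and transition protein genes, limited by the gate, thus led together with mitochondrial genes. These variances over mean pool both marks, and for the genes of these classes named here they were larger under mark 2. By mark, Prm2 had 37.6 and 68.7, mt-Co3 11.2 and 32.7 and Prm1 9.22 and 39.2. For Prm2 the thinned UMIs per cell had a median of 23 under each mark and highest values of 395 and 428. For mt-Co3 the median was 1 under each mark and the highest values were 47 and 93. The marker Tex36 was even, with medians of 8 and 9 UMIs and quartiles of 6 to 10 and 6 to 11.

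Levels were set beside the Hemgn UMIs of the gated cells. Hemgn was limited by the gate, and the bins and the genes shown were chosen after values were seen, so the levels are a description. In a separate thinning a Hemgn UMI was seen in 29.9% and 26.3% of gated cells. The shares were 16.0% and 16.9% in early round spermatids and 12.7% and 10.1% in pachytene-gated spermatocytes, whose gates also limited Hemgn. Among Sertoli-gated barcodes, some shared with the spermatid gates, they were 32.6% and 12.9%. The part of free RNA in the Hemgn UMIs of gated cells was not tested. Gated cells with no thinned Hemgn UMI (102 and 107), with 1 (39 and 22) and with 2 or more (13 and 8) were set side by side. Calr3 averaged 40.2 and 40.2 CPM in those with none, 87.2 and 77.3 CPM in those with 1 and 115 and 100 CPM in those with 2 or more. Iqcf1 averaged 469 and 422 CPM in those with none, 567 and 623 CPM in those with 1 and 692 and 700 CPM in those with 2 or more. H2al2a averaged 189 and 173 CPM in those with none, 267 and 232 CPM in those with 1 and 362 and 325 CPM in those with 2 or more. These 3 were lowest in the cells with no Hemgn UMI under both marks, which did not hold for every gene lower than in Hemgn-high spermatids. Adam6a averaged 56.9 and 42.1 CPM in those with none, 61.5 and 40.9 CPM in those with 1 and 38.5 and 62.5 CPM in those with 2 or more. Tex36 averaged 844 and 881 CPM in those with none, 872 and 814 CPM in those with 1 and 823 and 825 CPM in those with 2 or more, and so differed little. Median depth was 27238.5 and 25124 UMIs in cells with none, 28377 and 27094.5 in those with 1 and 27498 and 28651.5 in those with 2 or more.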

How the data were processed

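Testicular cells of miR-202-/- and WT mice were profiled with 1 droplet library per genotype. The authors deposited 1 table of UMI counts, 20476 genes by 28245 barcodes. Cell Ranger 1.3.1, Seurat 3.2.2 and GRCm38 appear in the submitters' processing notes, without their roles. Members and gene lists were chosen with earlier results of these data known.

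UMIs were summed per gate and barcode mark and scaled to CPM with Python 3.11.15, numpy 2.4.6, scipy 1.17.1 and pandas 2.3.3. TMM factors came from edgeR 4.0.16 under R 4.3.3, with no test. Summed depth was 4545375 and 3838343 UMIs in the gated cells, 14819473 and 21940915 in early round and 5131948 and 3722444 in Hemgn-high spermatids. Ratio intervals are exact conditional binomial 95% intervals, and share intervals exact binomial. The calling and ratio interval steps were tested on simulated group sums with counting noise alone. The gates and the summing over barcodes were not part of that test. The naming rule took the 4 markers, the 12 largest called ratios per direction and contrast (ranked by the smaller change of both marks, Rik and Gm genes mostly as ranges), the 15 highest genes, 2 to 5 genes per list with the largest ratios and the 10 most variable genes. Other named genes, the X-linked ones and those set against double-positive barcodes included, were chosen after their values were seen. Of the table's genes 98.1% matched the GENCODE M21 annotation by name, 290 of 299 listed genes were in the table, and 14653 genes had a RefSeq promoter. Genes of multicopy families (Adam, H2al, Y-linked and Gm copies) share reads, and their values are uncertain. Alternatives varied every gate limit, the scaling, the fold, the minimum level, the depth per cell and doublets.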

Additional observations from a re-analysis of the deposited data

How the results depend on the processing

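The gate held 449 cells with Spam1 of at least 3, 123 with at least 8 and 132 with early markers under 3. Against Hemgn-high spermatids 194 genes (13 of them listed) were higher with a protamine share under 5%, and 1058 (71 listed) with a share under 20%. TMM factors gave 218 higher (15 listed) and 42 listed lower, and centring gave 218 higher (15 listed) and 39 listed lower. Against early round spermatids centring gave 374 lower genes, 13 of them listed. At 2-fold, 396 genes were higher (31 listed) and 174 lower (2 listed) than in early round spermatids, and 132 higher (9 listed) and 315 lower (11 listed) than in Hemgn-high spermatids. With no minimum of CPM or UMIs, 2594 were higher and 3077 lower (38 listed) than in early round spermatids, and 2043 higher and 1908 lower than in Hemgn-high spermatids. The cause was not tested beyond what each setting itself changes. All counts of genes, listed genes and members stayed within 1.5 times with UMI minimums of 8000 or 20000, Hemgn under 4, thinning, and without the deepest barcodes. They did so too without barcodes with genes of other cells and without gated cells at 0.5% mitochondrial UMIs or more, both chosen after seeing the data. Of the ratios of named genes, 210 moved and 0 reversed, counted over the settings that can move a ratio (all but the 2-fold and no-minimum rules). No paired analysis was possible because each genotype has 1 library and the marks are not tied to a genotype. Leaving out a replicate was not possible for the same reason. Depth limits low genes, and differences under 50 CPM were not called.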
